A study of Mus musculus with 8 samples.

Results

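Factor VIII (F8) and factor IX (F9) are the clotting factors missing in hemophilia A and hemophilia B, and factor VIII depends on 3 further genes: von Willebrand factor (Vwf), which carries it in plasma, and Lman1 and Mcfd2, which form the receptor that takes it out of the endoplasmic reticulum (ER). These 5 genes were taken by gene name from 8 Agilent expression arrays. The array design used for Lin- BM cells and 1-month BM-derived hepatocytes held 49063 gene names and read the 5 genes with 8 probes. The design used for primary hepatocytes and 5-month BM-derived hepatocytes held 34788 gene names and read them with 7 probes. A probe of identical sequence was present on both designs for 13371 gene names, and each of the 5 genes had 1 such shared probe.

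The study followed Lin- bone marrow (BM) cells of female C57Bl6/J-Tg(UBCGFP)30Scha/J mice, which carry eGFP under the ubiquitin C promoter, after transplantation into male hemophilia A mice (B6;129S4-F8tm1Kaz/J) whose own F8 gene is disrupted. Donors and recipients were 6 to 8 weeks old, and the recipients had received acetaminophen at 500 mg per kg, which injures the liver, within the 30 h before the cells. Lin- BM cells are marrow cells left after magnetic removal of cells with mature blood lineage markers. The 4 groups, with 2 arrays each, were Lin- BM cells (arrays L3 and L4), BM-derived hepatocytes sorted for eGFP from perfused recipient livers at 1 month (B1 and B2) and at 5 months (G1 and G3), and primary hepatocytes (H2 and H4). The strain, age and treatment of the mice that gave the primary hepatocytes are not given in the sources used here. The stated age of the recipients is that at injury, so they were older at 5 months than at 1 month. Their age and the time after transplantation cannot be told apart. Each array carried RNA of pooled cells of 3 mice. A figure legend of the study counts 2 experiments with such pools, and the labels do not tie arrays to pools, so p-values measure the spread between these arrays. Arrays of Lin- BM cells and 1-month cells shared a slide and a design, and those of primary and 5-month hepatocytes shared another slide and design, each slide with its own scan day. Slide, design and group therefore cannot be told apart in the other 4 comparisons.

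Factor VIII is a cofactor and factor IX a protease of the same clotting complex, in which factor IXa activates factor X. Factor IX is made by hepatocytes and is gamma-carboxylated by the vitamin K dependent carboxylase. Factor VIII of the liver comes mainly from sinusoidal endothelial cells, and VWF is made by endothelial cells and megakaryocytes and stored in Weibel-Palade bodies and platelet alpha granules. Lman1 is a mannose-binding lectin that cycles between ER and Golgi, and Mcfd2 is its calcium-binding partner. Loss of either partner lowers plasma factor V and factor VIII together.

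Probe sequences are shown for the places where the result depends on what a probe reads. In the array files the probe of F8 present on both designs, A_51_P289239, was placed at mm9 chrX:72455821-72456709 on the minus strand, a stretch of 889 bases for a probe of 60 bases, so it crosses an exon junction. The other F8 probe, A_55_P2072493, was present only on the design of primary and 5-month hepatocytes, at mm9 chrX:72577870-72577929 on the same strand, which places it upstream in the transcript. The remaining 3 are the probes of F9, Vwf and Mcfd2 found only on the design of Lin- BM cells and 1-month hepatocytes, which served as a second reading of those genes. Each of the 5 had at least 1 forward reading frame without a stop codon over its 60 bases.
F8 A_51_P289239: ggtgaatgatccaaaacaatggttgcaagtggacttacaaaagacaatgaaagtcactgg
F8 A_55_P2072493: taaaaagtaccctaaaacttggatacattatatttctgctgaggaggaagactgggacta
F9 A_52_P606233: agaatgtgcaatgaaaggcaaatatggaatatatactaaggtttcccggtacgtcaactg
Vwf A_51_P103406: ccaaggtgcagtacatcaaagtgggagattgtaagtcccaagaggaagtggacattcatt
Mcfd2 A_52_P350477: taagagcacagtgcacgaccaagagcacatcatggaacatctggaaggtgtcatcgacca
Neither F8 probe was placed here against the disrupted exon of the recipients, and the donor cells carry an intact F8 gene, so the F8 signal does not check the labels.

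Values are given as multiples of the upper quartile of an array's signals, over all probes of its design within a slide and over the shared probes across slides. Signals on the scale of a whole design are compared only within its slide. A signal is called well above background as the scanner software marks it. A difference is called where limma gave an adjusted p under 0.05 (Benjamini-Hochberg over all probes kept) with a log2 difference beyond 0.6 in size. The levels of 2 different probes are not compared, since probes differ in how brightly they bind.

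F8 had its highest signal in 5-month BM-derived hepatocytes and its lowest in Lin- BM cells. On its shared probe the signal was 0.0230 on L3, where it was not well above background, and 0.0817 on L4, against 0.148 on B1 and 0.147 on B2. Before scaling to the upper quartile, the intensities were 4.22 on L3, 13.8 on L4, 10.7 on B1 and 12.6 on B2. L4 thus lay above both 1-month arrays before scaling. The upper quartile signal was 177 on L4 against 75.5 on B1 and 89.5 on B2. On the scaled values the groups did not overlap, and the 1-month value was higher by 1.77 on the log2 scale (SE 0.63, 95% interval 0.15 to 3.39, n = 2, limma adjusted p = 0.0639), which was not called. It was called with all 8 arrays fitted together on the shared probes (1.81, adjusted p = 0.0207), with normexp background correction (0.85, adjusted p = 0.0133) and without L4 (2.68, adjusted p = 0.00880). Without L3 it was 0.85 (adjusted p = 0.0908). On the other slide the F8 signal was 0.281 on H2 and 0.218 on H4, against 0.609 on G1 and 0.533 on G3. Both 5-month arrays lay above both primary hepatocyte arrays. The difference was 1.20 on the log2 scale (SE 0.25, 95% interval 0.55 to 1.86, n = 2), with an unadjusted limma p of 0.00597 and an adjusted p of 0.157, and was not called. With normexp correction it was 0.52 (adjusted p = 0.241). The other F8 probe, A_55_P2072493, was not well above background on any of the 4 arrays of that slide and was not tested.

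Across slides, F8 on the shared probes was at -6.04 ± 1.20 (SD, n = 2) on the log2 scale in Lin- BM cells, -4.23 ± 0.04 in 1-month hepatocytes, -3.70 ± 0.23 in primary hepatocytes and -2.46 ± 0.17 in 5-month hepatocytes. F8 was higher than in Lin- BM cells by 2.34 in primary hepatocytes (SE 0.52, limma adjusted p = 0.00660) and by 3.58 in 5-month hepatocytes (SE 0.52, adjusted p = 0.00100), and both were called. These 2 comparisons share the Lin- arrays. Both calls held with normexp correction at smaller differences, 0.79 and 1.32, and without L3, at 1.49 and 2.73. Both were lost with the methods' t-test, with or without adjustment. Of the neighbours in this order, 1-month and primary hepatocytes differed by 0.53 (95% interval -0.71 to 1.77, adjusted p = 0.519). The 5-month cells were 1.77 above the 1-month cells (SE 0.52, adjusted p = 0.0613), which was not called in the fit of all 8 arrays and was called with only the 4 arrays of these groups (adjusted p = 0.0164). With normexp correction this difference was 0.23 (adjusted p = 0.274).

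**Figure D1:**
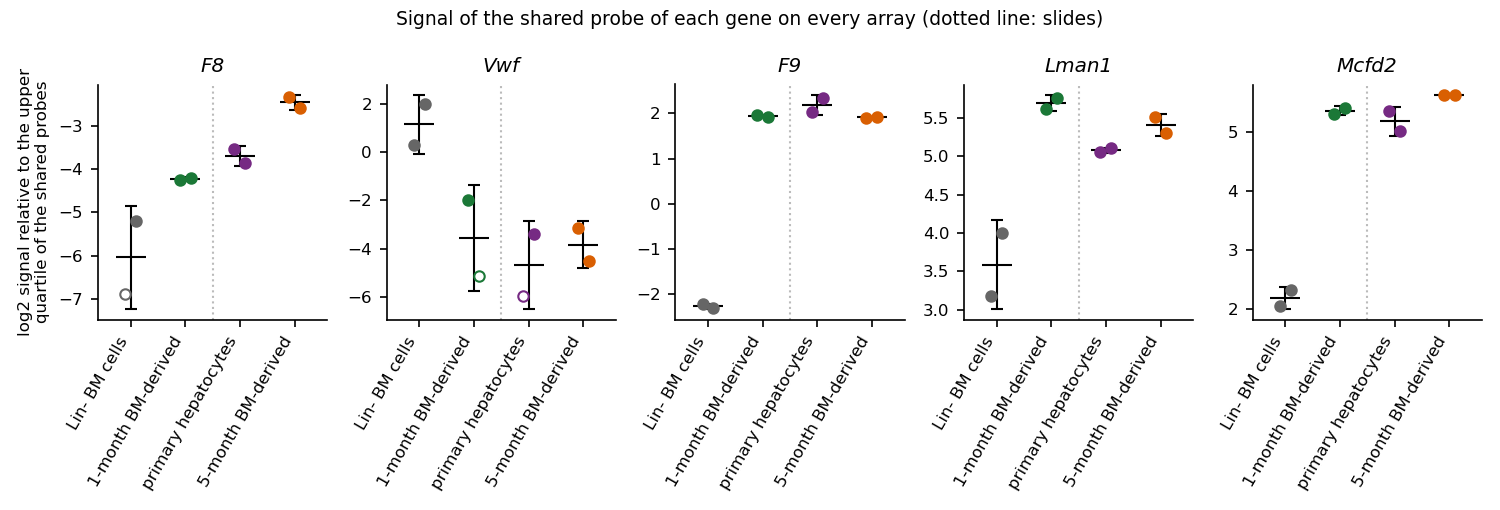
Log2 signal of the shared probe of F8, Vwf, F9, Lman1 and Mcfd2 relative to the upper quartile of the shared probes (vertical axes, different range in each panel) on every array of the 4 groups; points are arrays, open where not well above background, bars are means with SD (n = 2), and the dotted line separates the slides. F8 was lowest in Lin- BM cells and highest at 5 months, Vwf was highest in Lin- BM cells, and F9, Lman1 and Mcfd2 were lowest in Lin- BM cells.

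Vwf ran the other way and was highest on the arrays of Lin- BM cells. On its shared probe the signal was 3.31 on L3 and 11.96 on L4, against 0.705 on B1 and 0.0782 on B2, the last not well above background. The 1-month arrays lay below both Lin- arrays, and the log2 difference was -4.74 (SE 1.18, limma adjusted p = 0.0230, n = 2), which was called. The second probe, A_51_P103406, gave 0.493 on L3 and 1.60 on L4, against 0.0993 and 0.0196 on B1 and B2, neither of them well above background. By this probe Vwf was at least 13.1-fold lower at 1 month (adjusted p = 0.0152). This bound sets the mean of the Lin- arrays against the lowest signal that was well above background on each 1-month array, or the probe's own signal where that was higher. The call on the shared probe was lost without L4 (-3.82, adjusted p = 0.109) or without B2 (-3.16, adjusted p = 0.0633), and the second probe lost it without L4 (adjusted p = 0.0733), without B2 (adjusted p = 0.0547) and with normexp background correction (adjusted p = 0.102). On the shared probe normexp correction gave -2.92 and kept the call (adjusted p = 0.0207).

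In primary hepatocytes Vwf was at 0.0524 on H2, not well above background, and 0.307 on H4, and in 5-month hepatocytes at 0.349 on G1 and 0.139 on G3. These groups overlapped, and the difference of 0.79 (95% interval -1.79 to 3.38, adjusted p = 0.755) turned to -0.48 without H2. Compared across slides, Vwf was lower than in Lin- BM cells, with log2 differences of -5.81 in primary hepatocytes (SE 1.28, adjusted p = 0.00652) and -4.97 in 5-month hepatocytes (SE 1.28, adjusted p = 0.0128). The latter call was lost without L4 (-4.12, adjusted p = 0.0778) or without G3 (-4.29, adjusted p = 0.0730). With normexp correction both stayed called, at -3.40 and -3.27. The group means fell in the order Lin- BM cells, 1 month, 5 months and primary hepatocytes, and of the neighbours 5 months and 1 month differed by -0.27 (95% interval -3.34 to 2.80) and 5 months and primary hepatocytes by 0.84 (95% interval -2.24 to 3.91). Neither of these was called. The spread of Vwf within groups was the widest of the 5 genes, with an SD between 0.97 and 2.20 on the log2 scale of the shared probes.

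F9 was higher on every hepatocyte array than on both Lin- arrays. The shared probe gave 0.576 on L3 and 0.599 on L4, against 10.97 on B1 and 10.33 on B2. F9 thus rose 18.1-fold at 1 month, or by 4.18 on the log2 scale (SE 0.26, n = 2, limma adjusted p = 4.11e-04). The second probe, A_52_P606233, was at 0.0132 and 0.0109 on the Lin- arrays, not well above background on either, and at 3.06 and 2.49 on B1 and B2. By this probe the rise was at least 115-fold (adjusted p = 9.78e-05), so the probes shared the direction and differed in how far above background the Lin- signal stood. The Lin- signal of the shared probe was well above background on L3 and L4. The rise was 3.22 with normexp correction and 6.01 for the mean of the 2 probes, and both were called.

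F9 was at 13.40 on H2 and 16.11 on H4 in primary hepatocytes and at 11.56 on G1 and 11.997 on G3 at 5 months. The 5-month arrays lay below both primary hepatocyte arrays, with a difference of -0.32 (SE 0.23, 95% interval -0.92 to 0.28, adjusted p = 0.574) that was not called. Against Lin- BM cells across slides, F9 was higher by 4.47 in primary hepatocytes (SE 0.22, adjusted p = 7.48e-06) and by 4.19 in 5-month hepatocytes (SE 0.22, adjusted p = 1.07e-05). Between 5 and 1 months it differed by -0.03 (95% interval -0.55 to 0.48, adjusted p = 0.936), and 1-month and primary hepatocytes differed by -0.25 (95% interval -0.76 to 0.27, adjusted p = 0.469). F9 kept its calls against Lin- BM cells in every alternative fit run, the methods' t-test and each left-out array included.

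In the RefSeq promoter table (GRCm38.p6), which holds a window from 250 bases before to 50 bases after a start site, F9, F8 and Mcfd2 had an entry. Motifs of liver and blood regulators were searched on both strands: CAAAGGTCA and CAAAGTCCA for the nuclear receptor HNF4, TTGCNNAA for C/EBP factors, AGATAA for GATA factors and GTTAAT for the core of an HNF1 site. The F9 window held CAAAGGTCA, at bases -8 to 1 counted from its start site, and TTGCNNAA, at bases -24 to -17, and the windows of F8 and Mcfd2 held none of these letters. Of 32851 windows of the table, 0.478% held CAAAGGTCA and 10.8% held TTGCNNAA. CAAAGTCCA stood in 0.475%, AGATAA in 11.2% and GTTAAT in 7.10% of the windows. The start sites of the F9 and F8 windows lie 135 and 2697 bases inside the genes as the gene table gives them, so the F8 window does not read the stretch before its annotated gene start. The stretch with both matches, in capitals, lies at GRCm38.p6 chrX:59999438-59999467 on the plus strand.
F9 start region: gcTTGCACAAtctcctaaCAAAGGTCAtga
A match of letters is a description of the sequence, and whether any of these factors acts on F9 in these cells was not tested. Hnf4a, which encodes HNF4 alpha, was at 0.146 and 0.0776 on L3 and L4 and at 16.5 and 13.4 on B1 and B2, a rise of 7.13 on the log2 scale (SE 0.40, adjusted p = 3.02e-04). By another probe on the other slide, Hnf4a was at 250.7 and 341.1 on H2 and H4 and at 316.5 and 328.4 on G1 and G3. Hnf4a had no shared probe, so its levels are not compared between the slides.

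Mcfd2 and Lman1, the partners of the export receptor, both rose from Lin- BM cells to 1-month hepatocytes and were well above background on all 8 arrays. Mcfd2 on its shared probe was at 11.3 on L3 and 14.9 on L4, against 111.6 on B1 and 115.1 on B2, a rise of 3.13 on the log2 scale (SE 0.29, n = 2, limma adjusted p = 0.00122). Its second probe, A_52_P350477, was at 0.164 and 0.0957 on the Lin- arrays and at 1.48 and 1.96 on the 1-month arrays, a rise of 3.76 (SE 0.38, adjusted p = 0.00152), or 2.02 with normexp correction. The direction was the same on both probes, and the groups did not overlap on either. Lman1 was at 24.5 on L3 and 47.7 on L4, against 138.6 on B1 and 147.5 on B2, a rise of 2.06 (SE 0.40, adjusted p = 0.0108). Lman1 was higher on L4 than on L3, and the call was lost without B1 (2.11, adjusted p = 0.0530) or without B2 (2.02, adjusted p = 0.0606).

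Between 5-month and primary hepatocytes neither gene of the receptor was called. Mcfd2 was at 151.5 on G1 and 156.3 on G3, against 133.1 on H2 and 102.4 on H4, and the difference was 0.40 (SE 0.24, 95% interval -0.24 to 1.04, adjusted p = 0.517). Lman1 was at 140.6 and 125.4 against 108.4 and 109.4 on its shared probe, a difference of 0.29 (95% interval -0.28 to 0.85, adjusted p = 0.593). The 5-month arrays lay above the primary hepatocyte arrays on both shared probes. The second Lman1 probe, A_52_P10781, was at 3.82 and 3.27 at 5 months and at 2.14 and 3.37 in primary hepatocytes, where the groups overlapped, with a difference of 0.40 (adjusted p = 0.612).

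Across slides, Mcfd2 was above Lin- BM cells by 2.99 in primary hepatocytes (SE 0.23, adjusted p = 5.95e-05) and by 3.43 in 5-month hepatocytes (SE 0.23, adjusted p = 3.50e-05). Lman1 was above Lin- BM cells by 1.49 in primary hepatocytes (SE 0.31, adjusted p = 0.00487), a call lost with quantile normalization (0.77, adjusted p = 0.0828), and by 1.82 in 5-month hepatocytes (SE 0.31, adjusted p = 0.00206), or 1.05 with quantile normalization, which kept the call. The order of group means was 5 months, 1 month, primary hepatocytes and Lin- BM cells for Mcfd2, and 1 month, 5 months, primary hepatocytes and Lin- BM cells for Lman1. Within the 3 hepatocyte groups no neighbours in either order were called different, the widest step being 0.33 for Lman1 between 5-month and primary hepatocytes (95% interval -0.41 to 1.07). Outside neighbours, Lman1 was 0.61 higher at 1 month than in primary hepatocytes (95% interval -0.13 to 1.35, adjusted p = 0.223), which was not called.

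**Figure D2:**
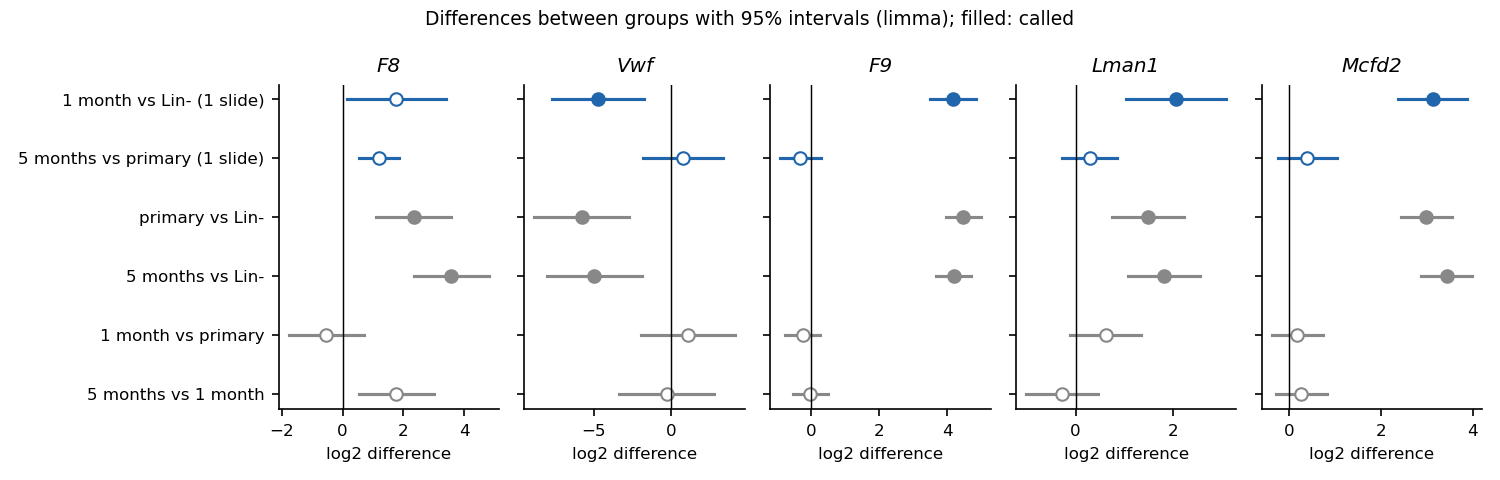
Log2 difference (horizontal axes) of the shared probe of each gene in the 6 comparisons, with 95% intervals from limma (n = 2 per group); filled points were called, blue marks comparisons within a slide and grey those across slides. F8, F9, Lman1 and Mcfd2 lie above 0 and Vwf below 0 in the 3 comparisons with Lin- BM cells, where F8 at 1 month was not called. All intervals of the comparison of 5-month with primary hepatocytes cross 0 except that of F8, from 0.55 to 1.86.

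In counts, 4 of the 5 genes were called at 1 month against Lin- BM cells, 3 higher and 1 lower, where 55.1% of all 34492 probes were called. Of the 5 genes, 0 were called at 5 months against primary hepatocytes, where 0.700% of 26993 probes were called. At an unadjusted limma p under 0.05 the latter count was 1, F8, as it was with the methods' t-test without adjustment. Across slides, 5 of 5 were called in primary hepatocytes against Lin- BM cells, beside 66.8% of 9721 shared probes, and 5 of 5 in 5-month hepatocytes against Lin- BM cells, beside 66.4%. The calls against Lin- BM cells thus stood among calls of most probes tested. With the methods' t-test after adjustment, F9 and Mcfd2 were the 2 genes still called in each of the 3 comparisons with Lin- BM cells. For 1-month against primary hepatocytes 0 of 5 were called, beside 16.6% of the probes, with 0 at an unadjusted limma p under 0.05 and 1, Lman1, with the methods' t-test without adjustment. For 5-month against 1-month hepatocytes 0 of 5 were called, beside 16.6% of the probes, with 1 at an unadjusted limma p under 0.05, F8, which was also the 1 found by the methods' t-test without adjustment.

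The probes whose pattern over the 8 arrays lay nearest to each gene, by Pearson's r on the log2 scale among 9713 shared probes, are given as a description. These arrays come from 4 groups on 2 slides, and a difference between Lin- BM cells and the rest is enough to give a high value. F9 was nearest to Sar1b (0.999), which encodes a GTPase of ER exit vesicles, Abca6 (0.999) and Acot4 (0.999), and 1163 probes exceeded 0.95. Mcfd2 was nearest to Scd1 (0.999), a fatty acid desaturase, Gpd1 (0.998) and Fam20a (0.998), with 1060 probes over 0.95. Lman1 was nearest to Pcp4 (0.994), Rnd3 (0.993) and Alg14 (0.990), with 194 over 0.95. F8 and Vwf had few probes this close, with 32 for F8, led by Bst2 (0.984), Tmem223 (0.982) and Azin1 (0.974), and 18 for Vwf, led by Ptp4a2 (0.979), Pimreg (0.972) and Rrn3 (0.968).

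The other genes of factor VIII and IX production and turnover were read from their brightest probe. At 1 month against Lin- BM cells, 28.5% of the 28035 genes tested were called higher and 26.8% lower, with a median log2 difference of 0.05. All 12 further coagulation factors were called higher, with a median of 10.67, and Fgg and Fgb, the gamma and beta chains of fibrinogen, were at least 47880-fold and 37507-fold higher. Of 9 anticoagulant and inhibitor genes, 6 were called higher and 0 lower, with a median of 8.08, or 6.91 with genes not above background in Lin- BM cells at their bound. Among them, Serpind1 (heparin cofactor II) was at least 7803-fold and Serpinc1 (antithrombin) at least 13110-fold higher. The remaining 3 of these genes were Tfpi (0.58), Procr (-1.15) and Thbd (-0.56), of which the last 2 are known for expression on endothelium.

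Some genes that modify the clotting factors rose at 1 month. Of 8 genes of the vitamin K cycle, propeptide cleavage and tyrosine sulfation, 5 were called higher and 0 lower (median 1.91). Ggcx, the gamma-glutamyl carboxylase that acts on factor IX, rose by 4.70 on the log2 scale (SE 0.30, adjusted p = 4.30e-04), and Pcsk5, a proprotein convertase, rose by 3.78 (SE 1.07, adjusted p = 0.0331). In the list of ER to Golgi transport, where Lman1 and Mcfd2 act, 8 of 15 genes were called higher and 1 lower (median 1.09). Sar1b rose by 3.44 (SE 0.27, adjusted p = 7.44e-04) and Sec24a, a cargo-binding COPII coat subunit, by 2.91 (SE 0.28, adjusted p = 0.00136), while Sec24b, its paralog, fell by 1.06 (SE 0.27, adjusted p = 0.0258), with its other kept probe not called in that direction. Of 7 ER chaperones tested, 3 were called higher and 0 lower (median 0.76), among them Pdia4 (2.21, SE 0.33, adjusted p = 0.00503) and Hspa5, known as BiP, which binds factor VIII in the ER (1.497, SE 0.35, adjusted p = 0.0185).

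Receptors that clear factor VIII and VWF from plasma and the platelet receptor for VWF went in opposite directions. Of 6 genes of cleavage and clearance tested, 6 were called higher (median 4.76), led by Asgr1 (10.51, SE 0.33, adjusted p = 6.33e-05) and Asgr2 (10.05, SE 0.30, adjusted p = 5.85e-05), the chains of the hepatocyte asialoglycoprotein receptor. Of 4 genes of the platelet receptor, 3 were called lower and 0 higher (median -4.88, or -4.39 with genes not above background at 1 month at their bound). Gp9 was at least 81.3-fold lower (adjusted p = 0.00128) and Gp1ba, the chain that binds VWF, at least 29.2-fold lower (adjusted p = 0.00398).

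At 5 months against primary hepatocytes no gene of these lists was called, where 0.412% of 19915 genes were called higher and 0.226% lower, with a median of 0.04 over all genes. The medians were 0.21 for 12 coagulation factors, 0.28 for 9 anticoagulant and inhibitor genes, 0.07 for 8 genes of the vitamin K cycle, cleavage and sulfation, -0.05 for 15 genes of ER to Golgi transport, 0.45 for 8 ER chaperones and 0.15 for 7 genes of cleavage and clearance. The platelet receptor had 1 gene tested, at -0.43. The 12 coagulation factors lay between -0.17 and 0.37. All 8 ER chaperones had a positive difference, from 0.22 to 1.09. At an unadjusted limma p under 0.05 there was 1 gene each in the chaperone and the clearance list, Calr (1.01, adjusted p = 0.296) and the scavenger receptor Scara5 (at least 6.33-fold lower, adjusted p = 0.135), both named after their values were seen, and 0 in the other lists. The methods' t-test without adjustment called 0 in all of these lists.

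**Figure D3:**
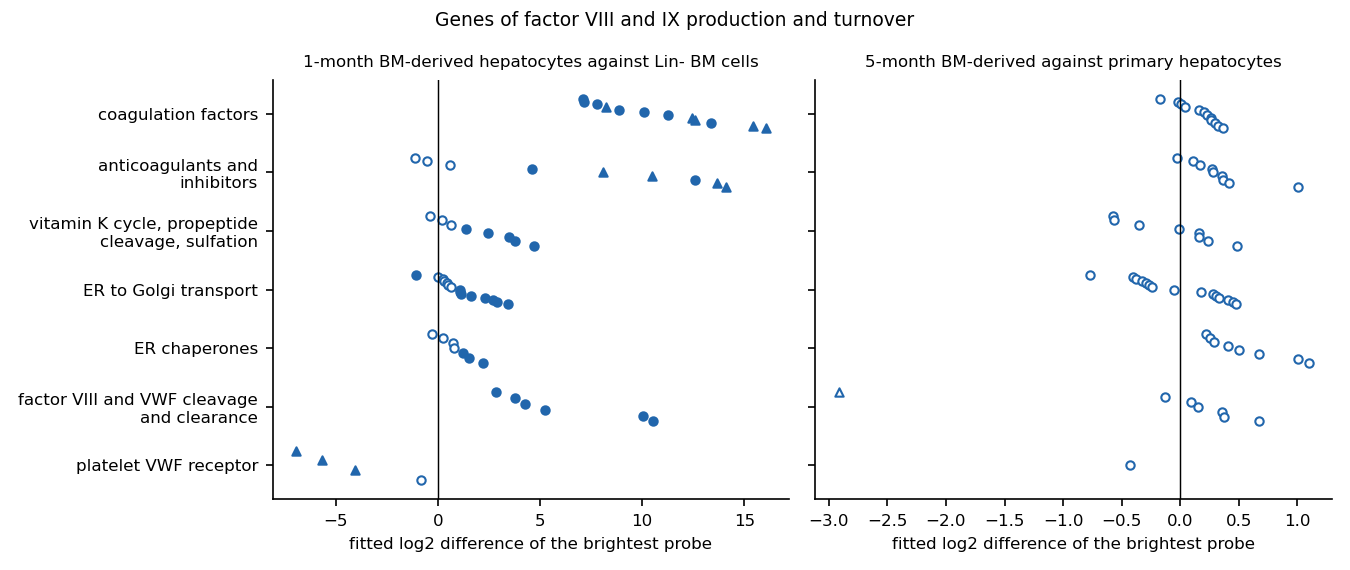
Fitted log2 difference (horizontal axes, different ranges) of the brightest probe of each gene in 7 lists (rows) for the comparisons within a slide; each symbol is a gene, filled where called, and triangles mark genes not well above background on either array of a group, whose fitted value is no measured fold. At 1 month against Lin- BM cells all 12 coagulation factors were called higher, and at 5 months against primary hepatocytes none was called in any list.

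Other cell types that make factor VIII or VWF were followed through marker genes, because in bulk samples fewer cells of a type and less RNA per cell cannot be told apart. By the study's methods, a slow spin of the liver suspension separated hepatocytes from non-parenchymal cells, eGFP cells were then sorted, and the sorted cells were stained for albumin. Of 12 markers of sinusoidal and other endothelium, 10 were called higher and 1 lower at 1 month against Lin- BM cells. Over all genes, 28.5% were called higher and 26.8% lower there. The summed signal of the endothelial markers was 4.16 to 4.28 on the Lin- arrays and 84.6 to 99.3 on the 1-month arrays. Stab2, a scavenger receptor of sinusoidal endothelium, was at 0.335 and 0.429 against 8.42 and 6.35, and Cdh5 (VE-cadherin) at 0.212 and 0.805 against 5.58 and 8.69. Pecam1 was the marker called lower (-2.53 on the log2 scale, SE 0.34, adjusted p = 0.00366). Stab2 also stands in the list of clearance genes. On the other slide the endothelial sum was 72.8 to 79.1 in primary and 83.3 to 100.2 in 5-month hepatocytes, with 0 of 12 called and 2 at an unadjusted p under 0.05. Both arrays of a group read well above background for 9 of the 12 markers in Lin- BM cells, 11 at 1 month, 12 in primary hepatocytes and 11 at 5 months. Endothelial transcripts were thus present beside F8 in all 3 hepatocyte groups, though this count alone does not set them apart from Lin- BM cells. The part of endothelial transcripts in the F8 values was not tested.

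Kupffer cells are the macrophages of the liver sinusoid. The summed signal of their markers was 1.47 to 4.52 in Lin- BM cells, 9.61 on B1 and 40.8 on B2. At 1 month 4 of 7 were called higher and 0 lower, beside 28.5% of all genes called higher. Clec4f, a lectin of Kupffer cells, was at 1.42 on B1 and 7.94 on B2. Marco, of the same list, ran the other way, at 2.39 on B1 and 1.36 on B2. F8 was dim on these arrays, at 0.148 and 0.147. The sum was 21.8 to 45.8 in primary hepatocytes and 90.6 to 96.1 at 5 months, with 0 of 6 tested called and 3 at an unadjusted p under 0.05. Cd163 was the marker not well above background on either 5-month array. The part of Kupffer cells in the F8 values, the difference between 5-month and primary hepatocytes included, was not tested.

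Megakaryocyte and platelet markers were lower at 1 month than in Lin- BM cells, as Vwf was. Of 9 markers, 8 were called lower and 0 higher, beside 26.8% of all genes called lower. Their sum was 68.8 and 182.8 on the Lin- arrays against 1.098 to 1.45 on the 1-month arrays. This direction was not particular to them: 6 of 6 leukocyte (median -6.39) and 7 of 7 blood progenitor markers (median -9.49) were also called lower. Markers of endothelium, which also makes VWF, mostly went the other way, with 10 of 12 called higher and 1 lower. Pf4, platelet factor 4, was at 41.6 on L3 and 113.6 on L4, and Vwf was also higher on L4 than on L3. Pf4 was at 0.358 and 0.295 at 1 month, and Itga2b, the integrin chain CD41, was at 1.89 and 1.15 in Lin- BM cells and not well above background on either 1-month array. In primary and 5-month hepatocytes the sum was 0.584 to 1.25 and 1.64 to 2.20, with 0 of 3 tested called and 1 at an unadjusted p under 0.05. The part of megakaryocytes, platelets or endothelial cells in the Vwf values was not tested.

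**Figure D4:**
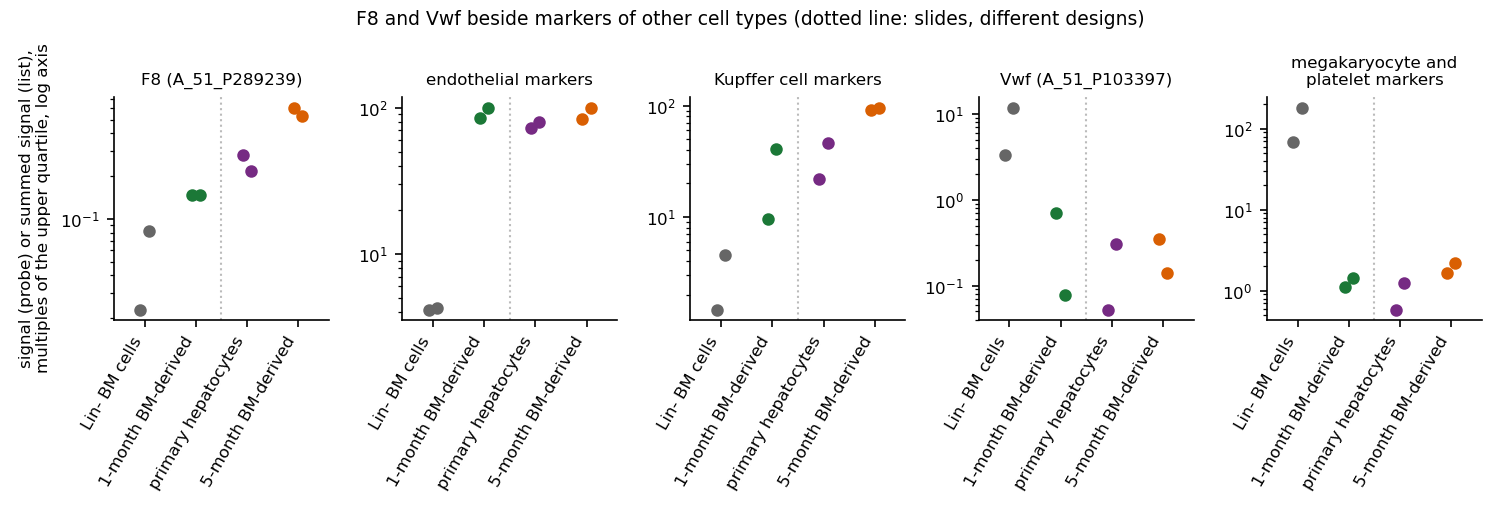
Signal of the shared probe of F8 and Vwf and summed signal of 3 marker lists, in multiples of the upper quartile of all probes of the design (vertical log axes); points are the 2 arrays of a group, with the lower sum of a list drawn first, and the dotted line separates slides with different designs. On this scale and within their slide, the endothelial and Kupffer cell sums and F8 were lower in Lin- BM cells than at 1 month, and the megakaryocyte and platelet sum and Vwf were higher.

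The labels were checked against defining markers. Alb was not well above background on either Lin- array and was at 1025 and 923.8 on the 1-month arrays. On the other slide it was at 1784 and 2132 on the primary hepatocyte arrays and 2141 and 2378 on the 5-month arrays. These Alb values are on the scale of each whole design and are not compared between the slides. The pan-leukocyte gene Ptprc was at 74.7 and 32.8 in Lin- BM cells and 0.136 and 0.616 at 1 month. By another probe on the other slide it was at 0.0945 and 0.119 in primary and 0.152 and 0.204 in 5-month hepatocytes. At 1 month, 28.5% of all genes were called higher and 26.8% lower. Beside these shares, 7 of 7 hepatocyte markers were called higher and 6 of 6 leukocyte and 7 of 7 blood progenitor markers lower. Stellate cell markers had 2 higher and 1 lower of 6, near the shares over all genes. At 5 months against primary hepatocytes 0 of 8 hepatocyte, 0 of 6 leukocyte and 0 of 6 stellate cell markers were called, with 0, 1 and 2 at an unadjusted p under 0.05. There, 1 of 5 progenitor markers (Gfi1b, at least 2.18-fold, adjusted p = 0.0300) was called higher. Between 47.7% and 58.6% of the probes of an array were well above background, 0 spots were saturated, and the upper quartile signal was lowest at 1 month, at 75.5 and 89.5 against 122.2 to 193.4 on the other arrays.

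Stress genes that respond to cell dissociation differed between arrays and groups. Their summed signal was 341.7 on B1 and 43.1 on B2, and Egr1, an immediate early gene, was at 128.7 and 1.49 on these arrays. The Lin- arrays lay between, at 90.7 to 230.5, and 0 of 8 stress genes were called at 1 month, with 0 at an unadjusted limma p under 0.05 and 0 by the methods' t-test without adjustment. At 5 months against primary hepatocytes the median difference of the list was 1.56, beside 0.04 over all genes. Fos was called higher (3.15, adjusted p = 0.0316), the 1 call of 8, and 6 of 8 had an unadjusted limma p under 0.05 and 4 were found by the methods' t-test without adjustment. Egr1 was at 2.67 (adjusted p = 0.0574), Fosb at 1.85 (adjusted p = 0.0665) and Hspa1a at 2.90 (adjusted p = 0.227), and Ier2 ran the other way, at -1.12 (adjusted p = 0.273). F8 was 1.20 higher in the same comparison, and the part of the stress genes' difference in it was not tested.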

How the data were processed

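RNA was labelled with Cy3 and hybridized to 1-colour Agilent arrays. The authors extracted spot intensities with Agilent Feature Extraction 11.5.1.1, which subtracted the background, and deposited them with flags for signals well above background and outlier spots. They also deposited log2 values from GeneSpring GX, which differed from the log2 intensities by 1 constant per array (within 0.02 for 100% of probes), the shift to the 75th percentile. Here, outlier spots were left out (6 to 152 per array), spots of identical sequence were averaged, and the 75th percentile of each array was subtracted from log2 intensities. Designs held 59014 and 55602 sequences, 13991 of them shared. Shared probes were matched by sequence alone, since 0 probe names agreed: the design of Lin- BM cells and 1-month hepatocytes names them with the prefix GT_Mm_44k_, written here as A_ throughout. Probes were kept if some group had both of its arrays well above background. Of the members' probes, 8 of 8, 6 of 7 and 5 of 5 shared ones passed. The fits used limma 3.58.1 (R 4.3.3) on the 4 arrays of a slide, or on all 8 arrays with the shared probes for comparisons across slides.

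Calls needed an adjusted p under 0.05 and the log2 limit of 0.6 that the methods state; the methods name a Student test without correction, which was run as an alternative. The number of arrays, 2 per group, limits the precision: the smallest two-sided p of an exact permutation test is 0.33. The genes, lists and tests were chosen with earlier results of these data known. Named genes were all members with every probe, the up to 2 largest called rises and falls of each pathway list within a slide, 8 defining markers, and the 3 genes nearest to each member. The fit was tested on simulated data. Alternatives were normexp correction (offset 50), quantile normalization, no filter, the deposited log2 values, 1 probe per gene, the mean of a gene's probes, the percentile over each whole design, only the arrays compared, the methods' t-test and leaving out each array. Genes were named through RefSeq (GRCm38.p6) by accession or symbol, and figures drawn with matplotlib 3.10.9 in Python 3.11.15.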

Additional observations from a re-analysis of the deposited data

How the results depend on the processing

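Over the alternatives, 450 values of the members' probes were recomputed: 404 kept their direction and side of the threshold, 27 kept their direction and lost a call, 7 gained a call and 12 turned direction, all 12 of them uncalled. With the methods' t-test after Benjamini-Hochberg adjustment, 2 of 5 genes, F9 and Mcfd2, were called in each of the 3 comparisons with Lin- BM cells. Without adjustment the same 2 were called at 1 month and in primary hepatocytes, and 4 at 5 months (F9, Lman1, Mcfd2 and Vwf). Without adjustment this test also called 1 gene at 5 months against primary hepatocytes (F8), 1 at 1 month against primary hepatocytes (Lman1) and 1 at 5 months against 1 month (F8). With only the 4 arrays compared, 1 gene was called at 5 months against 1 month, F8. Leaving out 1 array gave 2 to 4 genes called at 1 month against Lin- BM cells, the 2 without B2. The fit of all 8 arrays on shared probes, chosen after seeing the data, called 5.

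The uncalled differences that turned were these. At 1 month against primary hepatocytes, F8 was 0.30 with normexp correction, and Mcfd2 was -0.10 with the deposited values and -0.043 with the percentile over each whole design. At 5 months against 1 month, F9 was 0.28 with normexp correction, 0.21 with the deposited values and 0.15 with the percentile over each whole design, and Vwf was 0.13 with quantile normalization. With 1 array left out, Vwf ran from -0.48 to 2.07 at 5 months against primary hepatocytes, from -0.45 to 2.66 at 1 month against primary hepatocytes and from -1.83 to 1.29 at 5 months against 1 month. The cause was not tested.

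Counts of all probes called moved more. At 1 month against Lin- BM cells 19022 became 31157 with no filter, 5397 with the methods' t-test after adjustment, 6021 on shared probes with all 8 arrays, 12618 without B1 and 11732 without B2. At 5 months against primary hepatocytes 189 became 89 with no filter, 92 on shared probes, 109 with 1 probe per gene or their mean, 0 with the adjusted and 1959 with the unadjusted methods' t-test, 1465 without H2, 1744 without H4 and 0 without G1 or without G3. The adjusted methods' t-test gave 2510 in primary and 3386 in 5-month hepatocytes against Lin- BM cells. At 1 month against primary hepatocytes 1612 became 2531 with normexp correction, 4241 with no filter, 705 with only the 4 arrays, 2 with the adjusted methods' t-test and 551 to 1044 with 1 array left out. At 5 months against 1 month 1616 became 2827 with normexp correction, 14 with the adjusted methods' t-test and as few as 323 with 1 array left out. An array left alone in its group is assumed to vary like the others. F8 was not well above background on L3, nor Vwf on B2 and H2 by its shared probe, which limits both. No paired analysis was possible because any 2 groups share fewer than 2 replicate numbers.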
